A study of Rattus norvegicus with 8 samples.

Results

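Compartmented cultures let RNA be taken from the axons of sensory neurons apart from their cell bodies, and the libraries compared here are those of the control hairpin: 2 axonal and 2 somatic, 4 of the 8 libraries of the series. They came from rat dorsal root ganglion neurons of embryonic day 15, kept for 7 days in microfluidic chambers and transduced at plating with a lentivirus carrying shControl, a control short hairpin RNA. All 4 libraries therefore share the virus and the hairpin, and the other 4 carry shPum2, a hairpin against Pum2. Per the labels, the somatic compartment holds cell bodies together with axons, so the axonal side is compared with a mixture and not with pure cell bodies. Axonal libraries were made with an ultra-low input kit and somatic libraries with a standard kit, so in every value that follows the compartment and the kit cannot be told apart. Nothing in the labels says that the replicates were separate cultures or animals, and p-values measure the spread between these libraries, which may be technical. In bulk RNA, fewer cells of a type and less RNA per cell cannot be told apart.

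A sensory axon can be far from its nucleus, and part of its protein is made locally from mRNAs carried there in granules by microtubule motors. The mRNAs long described in axons include those of ribosomal proteins, of nuclear-encoded mitochondrial proteins and of the cytoskeleton. Axons also hold mitochondria and ribosomes, which use these products. Many other neuronal proteins, among them ion channels and cell adhesion molecules, are thought to be made mostly in the cell body and carried out along the axon.

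The axonal libraries held 11686666 and 13533385 counts and the somatic libraries 16725876 and 23176678. At least 10 counts were found for 8043 and 6860 genes in the axonal and for 12062 and 12205 in the somatic libraries. The 10 most abundant genes took 30.4% and 26.5% of axonal counts but 6.5% and 6.6% of somatic counts. Levels are given as CPM, a gene's counts scaled to the total of its library. The test rescaled the libraries (TMM, edgeR), with factors of 0.545 and 0.562 for the axonal and 1.87 and 1.75 for the somatic ones. That raised every axonal-over-somatic difference, so that a gene at equal CPM has a log2 difference near 1.7. How much of the shift goes back to the most abundant axonal RNAs was not tested. With library totals alone the median of all genes was lower by 1.71 on the log2 scale, from -0.58 to -2.29. Differences below are log2 values from the TMM fit, to be read against the all-gene median of -0.58.

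Pum2, which encodes the RNA-binding protein targeted in the other libraries, stood at 3.25 and 0.443 CPM in the axonal and at 164 and 160 CPM in the somatic libraries. Its groups did not overlap, yet the axonal replicates differed so much that the log2 difference of -4.73 (SE 1.26) did not pass (adjusted p = 0.0641).

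Of 11834 genes tested, 1312 (11.1%) were higher and 2641 (22.3%) lower in axonal libraries at an adjusted p below 0.05 (edgeR quasi-likelihood, Benjamini-Hochberg), 33.4% in either direction. Every count of list members below is to be read against these shares. Among the called genes, 0 had overlapping libraries. Libraries failed to overlap in 23.1% of all tested genes on the higher side and in 47.5% on the lower side, on the TMM scale. A comparison of 2 libraries with 2 cannot give an exact permutation p below 0.333 for any gene by itself, so each call leans on the spread pooled across genes. The lower calls rest on very few axonal reads: 1064 of the 2641 had 0 counts in both axonal libraries and 2119 had at most 10 counts in the 2 together. In a fit with 1 somatic library left, that library is assumed to vary as the axonal ones do, so few genes can be called lower. Such fits, quoted below for lists and genes, therefore say little about any single list or gene. Without replicate 1 or replicate 2 of the somatic group, 378 and 397 genes were called higher and 37 and 36 lower. Without replicate 1 or 2 of the axonal group the numbers were 3822 and 4037 higher and 6928 and 6297 lower, with the single axonal library then assumed to vary as the somatic ones do. With library totals in place of TMM, 603 of the 11834 genes were higher and 3936 lower. List counts with library totals below are to be read against these numbers.

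**Figure D1:**
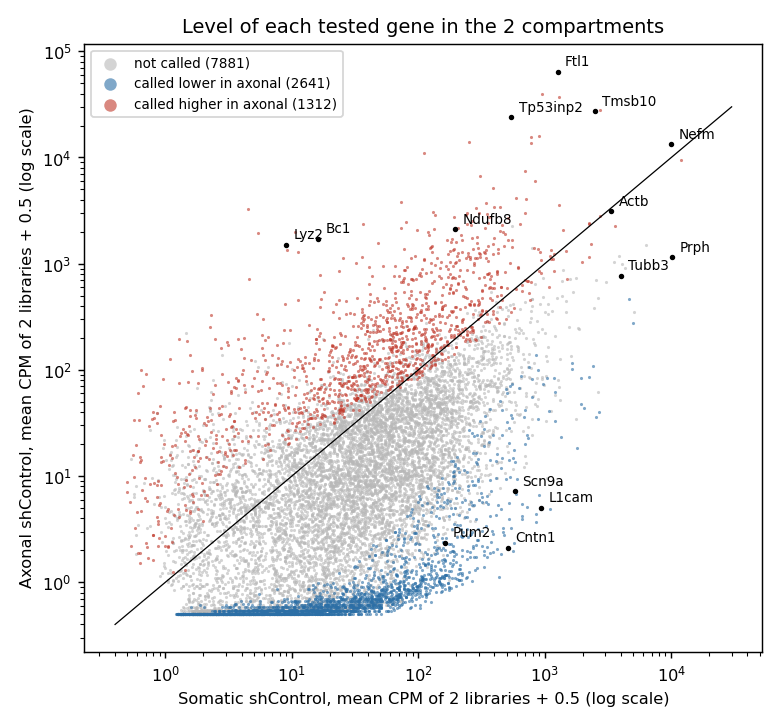
Mean CPM plus 0.5 of the 2 axonal libraries (vertical, log scale) against that of the 2 somatic libraries (horizontal, log scale) for each of the 11834 tested genes, with equal levels on the line; red points were called higher and blue points lower. Ftl1, Tmsb10 and Tp53inp2 lie far above the line among the most abundant genes, and the blue points gather at the bottom edge, where axonal counts are at or near 0.

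The axonal replicates were far less alike than the somatic ones. Across 9377 genes of at least 5 CPM, which are not independent replicates, log2 CPM correlated at r = 0.644 between the axonal and 0.990 between the somatic libraries. The median fold between axonal replicates was 6.31 for genes of 1 to 10 CPM, 3.50 for 10 to 100, 1.49 for 100 to 1000 and 1.24 for the 151 genes of 1000 CPM or more. In the somatic libraries it lay between 1.05 and 1.23 in the same classes. At a limit of 10 counts, 5730 genes were found in both axonal libraries, 2313 in replicate 1 alone and 1130 in replicate 2 alone. Axonal values below about 100 CPM are thus poorly determined in any single library, and abundant RNAs are measured much better.

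By TPM, which scales for transcript length and so allows genes to be ranked against each other, the most abundant axonal RNA was Ftl1, the light chain of the iron store ferritin. It had 65965 and 54003 TPM in axonal and 2705 and 2663 TPM in somatic libraries. Next came Tmsb10, a thymosin that binds actin monomers, with 65645 and 53310 TPM against 12956 and 12127, then Fth1, the ferritin heavy chain, with 44814 and 41310 TPM against 2380 and 2327. The neighbours Ftl1 and Tmsb10 in this order do not differ beyond the spread between replicates. Tmsb4x, another thymosin and a known axonal mRNA, followed with a mean of 38983 TPM, and Bc1, a short non-coding RNA of neurons that is found in dendrites and axons, with a mean of 25372 TPM against 897. The ribosomal protein mRNAs Rpl41, Rps2, Rps29 and Rpl38 and the cytochrome oxidase subunit mRNA Cox6a1 completed the first 10, each with a mean between 9640 and 17565 TPM. By somatic TPM, Tmsb10 ranked 2, Tmsb4x 4, Ftl1 24, Fth1 31 and Bc1 169.

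Of 79 cytosolic ribosomal protein mRNAs, 70 (88.6%) rose and 0 fell in axonal libraries (median 3.51), against 11.1% and 22.3% of all tested genes. Against 23.1% of all tested genes, all 79 had a positive difference with libraries that did not overlap. Their summed level was 117186 and 117756 CPM in axonal against 24263 and 26371 CPM in somatic libraries. Without replicate 1 or 2 of the somatic group 55 and 58 were called higher, and with library totals 52 were (median 1.80). Rps19, a protein of the small subunit, had 2825 and 3146 CPM in axonal and 297 and 308 CPM in somatic libraries, a log2 difference of 5.01 (SE 0.15, adjusted p = 0.0095). Rps2 reached 5.86 and Rpl41, of the large subunit, 5.14. Copies of ribosomal protein genes share reads, which kallisto divided by estimate, so single values in this family are uncertain.

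Many ribosomal protein mRNAs begin with a C followed by pyrimidines, the terminal oligopyrimidine tract through which mTOR signalling is known to control their translation. The 30 bases around the annotated start (15 before it and 15 from it on) are shown for 6 genes. Of these, 4 are the ribosomal protein genes with the smallest p among those called higher that hold such a run near their start. The others have the smallest p in each of 2 respiratory lists among members called higher that lack such a run. Presence or absence of the run in the genes shown was thus fixed by the choice. Sequences are RefSeq's on build GRCr8, 5′ to 3′ on the transcribed strand. Capitals mark a C and the unbroken run of C or T after it.
Rpl35 (chr3:43165907-43165936, minus strand): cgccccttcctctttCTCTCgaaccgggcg
Rps28 (chr7:15311319-15311348, minus strand): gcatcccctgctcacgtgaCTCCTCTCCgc
Rpl39 (chrX:121195882-121195911, minus strand): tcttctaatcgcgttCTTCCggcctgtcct
Rpl12 (chr3:36661925-36661954, plus strand): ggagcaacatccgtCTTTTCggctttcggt
Ndufb8 (chr1:253362922-253362951, minus strand): ctttgcgcatgtgcacggcgagcgtcggag
Cox5b (chr9:46417822-46417851, plus strand): cccggaagtgcatctgcttgtctcgagcga
A C followed by 4 bases that are each C or T, searched on the transcribed strand alone and beginning at most 5 bases from the annotated start, was found in 40 of the 62 ribosomal protein genes with a sequence in the table (64.5%). It was found in 16.9% of the 9114 tested genes with a sequence, in 19.4% of 31 complex I genes and in 17.1% of 35 genes of the other respiratory complexes. Genes called higher had it in 19.6% of cases and genes called lower in 16.1%. The share among the respiratory genes was thus near that of all genes. Rpl35 stood at 2198 and 2171 CPM in axonal against 321 and 350 CPM in somatic libraries, and Rpl39 at 1149 and 1128 against 135 and 145.

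Of 42 translation factors, which act with the ribosome at each step of protein synthesis, 8 rose and 2 fell (median 0.30), and with library totals 2 were higher and 11 lower. Tpt1, a small protein long described among axonal mRNAs, had 1431 and 1914 CPM in axonal and 522 and 584 CPM in somatic libraries (log2 difference 3.30, SE 0.23, adjusted p = 0.0129). Eef1a2, a form of the elongation factor that brings aminoacyl-tRNA to the ribosome in neurons and muscle, had 2.57 and 0.813 CPM against 282 and 263 (log2 difference -5.61, SE 0.85, adjusted p = 0.028), and was at an adjusted p of 0.257 and 0.237 without replicate 1 or 2 of the somatic group. Of 23 aminoacyl-tRNA synthetases and their partners, 2 rose and 0 fell with TMM. With library totals 0 were higher and 7 lower, where 603 of all 11834 tested genes were higher and 3936 lower. Kars1, which charges the tRNA of lysine, stood at 111 and 152 CPM in axonal against 168 and 174 CPM in somatic libraries, so its log2 difference of 1.32 turns to -0.38 with library totals.

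Nuclear-encoded subunits of the respiratory chain, which makes most of the ATP of a cell in mitochondria, rose the most of the large families. Of 33 complex I subunits and assembly factors, 30 (90.9%) rose and 0 fell (median 4.23). Of 41 members of complexes II to V, 35 (85.4%) rose and 0 fell (median 4.08), where 11.1% of all tested genes rose. Ndufb8, of complex I, had 2202 and 2047 CPM in axonal and 189 and 204 CPM in somatic libraries, a log2 difference of 5.14 (SE 0.18, adjusted p = 0.0095). Cox5b, of cytochrome oxidase, had 2173 and 2146 CPM against 200 and 213, and Uqcrq, of complex III, 3119 and 2573 against 132 and 137. In each of these genes the axonal replicates lay close together and far above both somatic ones. With a somatic library left out, 21 complex I members were called higher for either library, and 27 or 28 of complexes II to V. With library totals 25 and 27 passed upwards, and 0 and 2 downwards.

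The rest of the mitochondrial lists was mixed. Mitochondrial ribosomal proteins, which translate the few mRNAs of the organelle's own genome, had 32 of 67 higher and 0 lower (median 2.31), among them Mrps18c at 475 and 355 CPM in axonal against 21.3 and 22.1 CPM in somatic libraries. That count was 7 without either somatic library. Of 26 import genes 12 rose and 1 fell (6 and 3 with library totals). The small import subunit Tomm7 had 505 and 381 CPM in axonal against 41.2 and 40.9 CPM in somatic libraries, whereas the large import receptor Tomm70 had 12.1 and 14.8 against 192 and 181. Glycolysis and the citric acid cycle had 7 of 33 higher and 1 lower with TMM, and 1 higher and 7 lower with library totals. Pfkl, a phosphofructokinase, had 0.77 and 1.26 CPM in axonal against 186 and 166 CPM in somatic libraries.

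**Figure D2:**
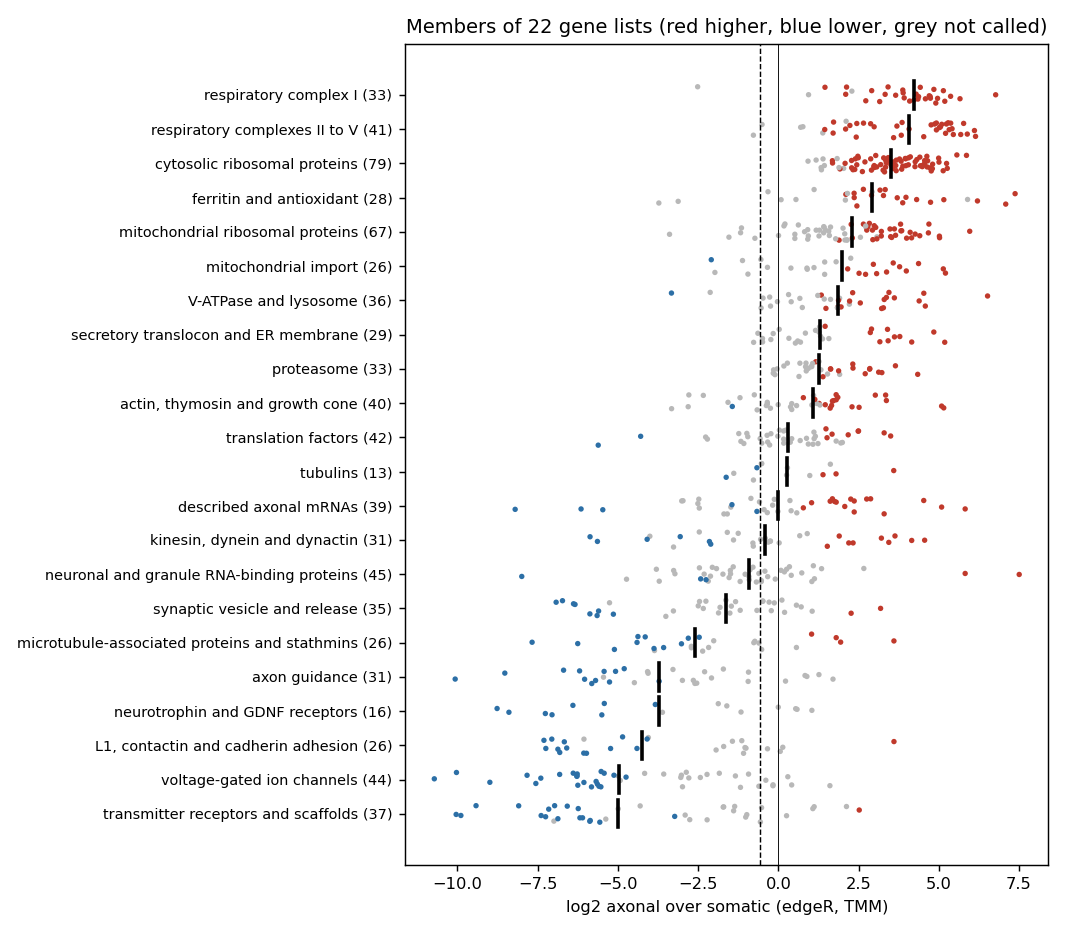
log2 difference between axonal and somatic shControl libraries (TMM) for each tested member of 22 gene lists, with the number tested in brackets; red members were called higher, blue lower and grey not called, thick bars are list medians and the dashed line is the all-gene median of -0.58. Respiratory and ribosomal protein lists lie to the right, with medians from 3.51 to 4.23 for the first 3, and ion channels and transmitter receptors to the left.

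Ferritin and antioxidant genes had 18 of 28 members higher and 0 lower (median 2.91), which became 7 and 3 with library totals, with 8 and 9 higher without replicate 1 or 2 of the somatic group. Ftl1 had 73384 and 55356 CPM in axonal and 1268 and 1265 CPM in somatic libraries, a log2 difference of 7.38 (SE 0.24, adjusted p = 0.0095), and Fth1 differed by 7.09. Gpx4, which detoxifies lipid peroxides, had 1169 and 1353 CPM against 194 and 220. Selenow, a small selenoprotein, had 4264 and 3123 against 353 and 325. V-ATPase and lysosome genes had 19 higher and 1 lower of 36, 8 and 3 with library totals, and 9 higher without either somatic library. Ctsz, a lysosomal protease, and Grn, the progranulin precursor, differed by 6.52 and 4.58, whereas the large a1 subunit of the proton pump, Atp6v0a1, had 23.4 and 21.6 CPM in axonal against 724 and 753 CPM in somatic libraries. Of the proteasome genes, 14 of 33 rose and 0 fell with TMM (3 rose without either somatic library), but 4 were higher and 4 lower with library totals. Of the secretory translocon, 11 of 29 rose and 0 fell (6 and 4 with library totals), among them Sec61g, a subunit of the translocation channel (5.19).

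The cytoskeletal lists had calls in both directions with TMM. Intermediate filaments had 1 of 10 higher and 3 lower, and tubulins 3 of 13 higher and 2 lower (0 and 5 with library totals in each list). Nefm, the middle neurofilament chain, was at 16335 and 10288 CPM in axonal and 9954 and 10009 CPM in somatic libraries (log2 difference 2.13, SE 0.29, adjusted p = 0.0276), a difference that was 0.42 with library totals (adjusted p = 0.297). Nefl, the light chain, was at 821 and 1516 CPM against 3976 and 3702 and was not called (-0.01, or -1.72 with library totals at an adjusted p of 0.036). Prph, the peripheral neuron filament peripherin and a described axonal mRNA, was at 1045 and 1240 CPM against 10187 and 10117 (-1.45, SE 0.13, adjusted p = 0.0197). The alpha tubulin Tuba1a had 9484 and 9630 CPM against 11415 and 12329, and the beta tubulins Tubb3 and Tubb2b had 801 and 742 against 3895 and 4104, and 391 and 529 against 4482 and 4764. Tuba1a was called higher (1.39) but turns to -0.31 with library totals, and Tubb3 (-0.67) and Tubb2b (-1.62) stayed negative with each scaling tried. Nefm and Prph were thus called in opposite directions with TMM.

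Of 40 genes for actin, its partners and the growth cone, 18 rose and 1 fell with TMM (median 1.07). With library totals 4 were higher and 7 lower (median -0.63). On that scale 603 of all 11834 tested genes were higher and 3936 lower (median -2.29). Actb, the actin mRNA best known from growth cones, had 3142 and 3135 CPM in axonal and 3538 and 3166 CPM in somatic libraries, a log2 difference of 1.62 (SE 0.11, adjusted p = 0.0117) that turns to -0.09 with library totals. Gap43, a growth cone protein, had 944 and 1135 CPM against 2009 and 1943, which is 0.78 with TMM and -0.93 with library totals. Stmn2, a tubulin-binding protein of growing axons, had 2182 and 2321 CPM against 3457 and 3700 and likewise turns from 1.04 to -0.67. The thymosins Tmsb10 and Tmsb4x kept 3.44 and 3.38 with library totals. Fscn1, which bundles actin in filopodia, had 85.5 and 115 CPM against 904 and 862 and was the 1 called lower.

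Microtubule-associated proteins had 11 of 26 members lower and 4 higher (median -2.59). Map1a, a large neuronal microtubule-binding protein, had 28.2 and 17.9 CPM in axonal and 1311 and 1368 CPM in somatic libraries (log2 difference -4.15, SE 0.37, adjusted p = 0.0192). Clasp2, which stabilises growing microtubule ends, had 8.3 and 9.46 CPM against 608 and 596, and Dpysl2, the collapsin response mediator CRMP2, 63.8 and 104 against 1970 and 1860. The short light chain Map1lc3a, better known as the autophagy protein LC3A, had 1144 and 1358 CPM against 331 and 341 and was called higher (3.60). Of 31 motor genes, 9 rose and 6 fell with TMM, and 5 were higher and 10 lower with library totals. Those that rose included the dynein light chains Dynlt1, Dynll1 and Dynlrb1 (4.16, 3.64 and 4.56) and the conventional kinesin heavy chain Kif5b, with 447 and 627 CPM against 194 and 184. Those that fell included Dctn1, the large subunit of the dynein partner dynactin, with 96.4 and 70.0 CPM against 1178 and 1169, and Kif3c, of a kinesin-2, with 2.909 and 1.995 against 452 and 485.

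**Figure D3:**
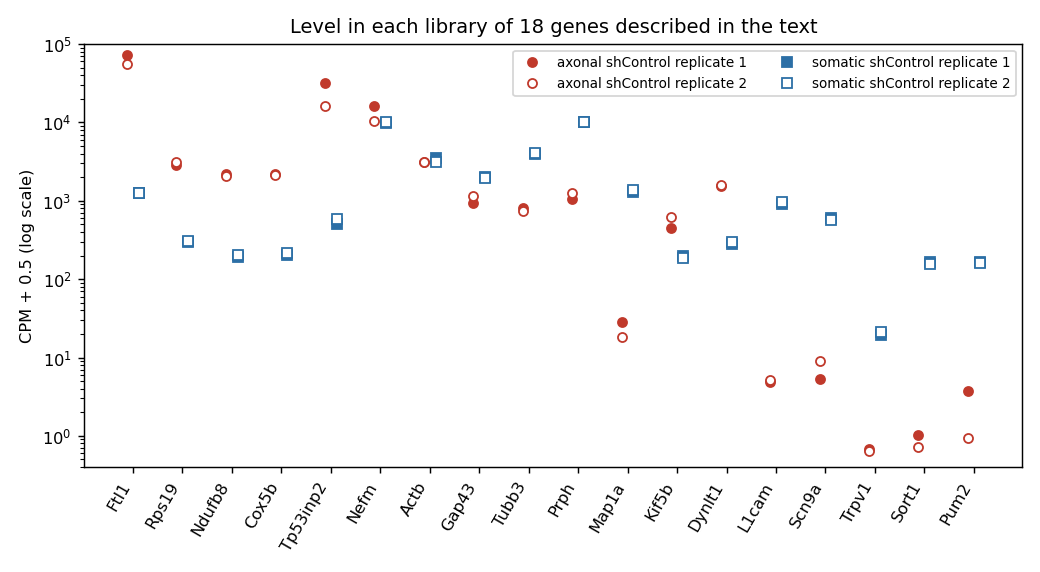
CPM plus 0.5 (log scale) of 18 genes in each of the 4 shControl libraries; circles are axonal and squares somatic libraries, filled for replicate 1 and open for replicate 2. Ftl1, Rps19, Ndufb8, Cox5b and Dynlt1 lie above their somatic values in both axonal libraries, and L1cam, Scn9a, Trpv1 and Sort1 lie below, with the axonal replicates of Pum2 well apart.

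Of 44 voltage-gated ion channel genes, 0 rose and 22 (50%) fell, against 11.1% and 22.3% of all tested genes. The list median was -4.96, or -4.77 with the 3 genes at 0 in both axonal libraries set to a floor of 3 counts over the group. Scn10a and Scn9a, sodium channels of pain-sensing neurons, had 1.80 and 6.95 CPM in axonal against 1156 and 1047 CPM in somatic libraries, and 4.88 and 8.50 against 599 and 570. Scn10a differed by -6.28 (SE 0.87, adjusted p = 0.0276). Cacna1a, a presynaptic calcium channel, had 0.428 and 0.887 CPM against 172 and 156. Of the sensory transduction channels 6 of 15 fell and 1 rose. Trpv1, the capsaicin receptor, had 0.171 and 0.148 CPM against 18.9 and 20.4, and the ATP-gated channel P2rx3 19.3 and 27.1 against 256 and 295. Fits without a somatic library, which took their spread from the axonal pair alone, cannot decide these calls.

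Adhesion molecules of the L1, contactin and cadherin families had 13 of 26 lower (50%, against 22.3% of all tested genes) and 1 higher (median -4.25). L1cam, which guides and bundles axons, had 4.36 and 4.73 CPM in axonal and 906 and 965 CPM in somatic libraries (log2 difference -5.98, SE 0.28, adjusted p = 0.0095). Cntn1, a contactin of axons, had 1.46 and 1.77 CPM against 527 and 494. L1cam and Cntn1 kept their call without either somatic library, with adjusted p between 0.0014 and 0.0176. The whole list then had 2 and 3 members called lower without replicate 1 or 2 of the somatic group. Axon guidance genes had 12 of 31 lower and 0 higher (median -3.71, or -3.28 with 3 genes at the floor), and 0 were called without either somatic library.

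Neurotrophin, GDNF and related receptors, through which target-derived factors keep sensory neurons alive, had 8 of 16 lower and 0 higher (median -3.72, or -3.35 with 2 genes at the floor). Sort1, the sortilin that binds neurotrophin precursors, had 0.513 and 0.222 CPM in axonal against 166 and 155 CPM in somatic libraries. Cntfr, the receptor of ciliary neurotrophic factor, had 0.171 and 0.517 against 164 and 185. For both, the adjusted p was above 0.2 without either somatic library, when 1 receptor of the list was called lower.

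Synaptic vesicle and release genes had 8 of 35 lower (22.9%) and 2 higher, a share of lower genes near the 22.3% of all tested genes. Slc17a6, the transporter that fills vesicles with glutamate, had 3.42 and 3.47 CPM in axonal and 627 and 691 CPM in somatic libraries (log2 difference -5.87, SE 0.32, adjusted p = 0.00987). Nrxn2, a presynaptic adhesion protein, and Syt1, the calcium sensor of release, differed by -6.33 and -5.65. Sncg, a synuclein abundant in sensory neurons, had 2209 and 1922 CPM against 1433 and 1373 and was called higher (2.27). Transmitter receptors and their scaffolds had 17 of 37 lower and 1 higher, with a median of -4.99 that becomes -2.22 when the 9 genes with 0 axonal counts are set to the floor. Dlg4, the scaffold PSD-95, and Grin1, an NMDA receptor subunit, differed by -6.10 and -6.24.

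Neuropeptide genes had 4 of 19 lower and 1 higher, also near the 22.3% of all genes called lower. Vgf and Scg2, precursors stored in dense-core vesicles, had 0.684 and 2.22 CPM in axonal against 621 and 499 CPM in somatic libraries, and 0.941 and 1.70 against 340 and 320. Gal, the galanin precursor, was the 1 called higher, at 17.9 and 36.4 against 0.777 and 0.992 CPM. Transcription factors of sensory neurons had 6 of 18 lower (33.3%, against 22.3% of all tested genes) and 0 higher. Isl2, a LIM homeodomain factor, had 0 axonal counts in both libraries and 17.8 and 12.9 CPM in the somatic ones, which is at least 125.6-fold lower by CPM in axonal libraries, with the floor of 3 counts over the group. On the TMM scale the same floor puts the log2 difference of Isl2 at -5.27 or below. Lipid synthesis genes had 7 of 30 lower (23.3%) and 1 higher, again near the share of all genes called lower. The desaturase Scd2 had 255 and 302 CPM in axonal and 4978 and 4928 CPM in somatic libraries (log2 difference -2.45, SE 0.16, adjusted p = 0.0112), and Acaca, which makes malonyl-CoA for fatty acid synthesis, 0.171 and 0.739 against 221 and 224.

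RNA-binding proteins of neurons and granules had 2 of 45 higher and 3 lower. The 3 were Fxr2, Elavl4 and Zbp1. In rat the symbol Zbp1 stands for Z-DNA binding protein 1 and not for the zipcode-binding protein of granules. These counts include it, at 0 axonal counts and 2.21 and 3.11 somatic CPM. Both that rose were abundant. Ybx1, a cold shock domain protein that packages mRNA, had 15319 and 11844 CPM in axonal against 734 and 834 CPM in somatic libraries (log2 difference 5.82, SE 0.25, adjusted p = 0.0095). Stau2, a Staufen protein that carries mRNAs in neurites, had 20402 and 7518 CPM against 246 and 258 (7.51, SE 0.73, adjusted p = 0.0222). Among genes for splicing, decay and transcription, those that rose included Snrpe of the spliceosome (4.33), Lsm7 of the Lsm ring that starts decay (4.56), and Polr2k and Polr2l of RNA polymerase II (4.89 and 5.74). With TMM, splicing had 7 of 42 higher and 4 lower, decay 6 of 32 and 6, and chromatin and transcription 6 of 31 and 3. With library totals these were 4 and 13, 4 and 7, and 3 and 8, where 603 of all 11834 tested genes were higher and 3936 lower. Setd5, a large chromatin protein, had 3.51 and 1.48 CPM in axonal against 223 and 224 CPM in somatic libraries.

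Kinase pathways of growth and injury had 6 of 37 higher (16.2%) and 7 lower (18.9%), against 11.1% and 22.3% of all tested genes. Lamtor2, a small subunit of the lysosomal anchor of mTOR complex 1, had 826 and 691 CPM in axonal and 61.6 and 66.7 CPM in somatic libraries. Tsc2, the mTOR inhibitor tuberin, had 467 and 490 CPM against 113 and 117 (log2 difference 3.77, SE 0.21, adjusted p = 0.00987). Mapk8, the stress kinase JNK1, had 0.342 and 0.665 CPM against 146 and 143 and was called lower (-6.44), with an adjusted p of 0.425 and 0.443 without replicate 1 or 2 of the somatic group. Of 24 genes for axon degeneration and survival, 2 rose (8.33%) and 5 fell (20.8%), near the 11.1% and 22.3% of all tested genes. Bax, which drives cell death, had 118 and 83.4 CPM in axonal against 70.1 and 68.0 CPM in somatic libraries (2.26), and Bcl2, which holds it back, 0.0856 and 0.148 against 14.1 and 12.6 (-5.08). Immediate early genes, which neurons switch on with activity or injury, had 0 of 20 called in either direction (edgeR). Their axonal replicates were far apart, with medians over the somatic mean of -0.60 and 1.62.

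Of 35 chaperones, 8 rose and 0 fell with TMM, and 3 were higher and 9 lower with library totals. Ppia, the peptidyl-prolyl isomerase cyclophilin A, had 3089 and 4008 CPM in axonal and 1241 and 1351 CPM in somatic libraries (log2 difference 3.16, SE 0.19, adjusted p = 0.0108). Genes of the stress and unfolded protein responses had 6 of 31 higher and 3 lower with TMM, and 0 higher and 7 lower with library totals. Chac1, a target of the integrated stress response, had 0.513 and 0.813 CPM in axonal against 139 and 201 CPM in somatic libraries. Rab GTPases, which mark membrane compartments, had 1 of 33 higher and 2 lower, with Rab6b, a Golgi form of neurons, at 79.4 and 150 against 1629 and 1632 CPM. Cell cycle genes had 2 of 29 higher and 1 lower.

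Of 39 tested mRNAs described in axons in earlier work, 16 (41.0%) rose and 5 (12.8%) fell with TMM (median -0.01), against 11.1% and 22.3% of all tested genes. With library totals 5 were higher and 14 lower. With the offset for transcript length described below, 4 were higher and 7 lower, against 5.27% and 19.2% of all tested genes. Besides those above, Hmgb1, the neurite-associated amphoterin, had 259 and 308 CPM in axonal against 235 and 206 CPM in somatic libraries and was called higher (2.07), as was Cdc42, a small GTPase of the growth cone (387 and 421 against 275 and 276). The 5 that fell were Prph, Tubb3, Kpnb1, Lmnb2 and Nmnat2. Kpnb1, the importin beta of retrograde injury signals, had 0.856 and 3.18 CPM against 300 and 282 (-5.47, SE 0.89, adjusted p = 0.029). Lmnb2, a lamin whose mRNA is known from retinal axons, had 0 and 0.0739 against 40.7 and 39.4. Nmnat2, the short-lived enzyme that keeps axons from degenerating, had 0.0856 and 0.739 against 100 and 92.4. Without either somatic library, Kpnb1, Lmnb2 and Nmnat2 had adjusted p from 0.227 to 0.605. The described axonal mRNAs thus stood on both sides of the comparison.

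Several RNAs with the largest differences belong to no list. Tp53inp2, an mRNA known to be very abundant in the axons of sympathetic neurons, had 32142 and 16026 CPM in axonal and 505 and 584 CPM in somatic libraries (log2 difference 7.18, SE 0.54, adjusted p = 0.0144). Rims3, of a family of presynaptic active-zone proteins, had 16195 and 5668 CPM against 112 and 109, and Cwc15, a spliceosome component, 4782 and 2783 against 71.0 and 74.7. Rn7sl1, the RNA of the signal recognition particle, had 2034 and 1867 CPM against 6.28 and 3.54, the rRNA genes Rn18s and Rn28s had 9445 and 21730 against 872 and 671 and 19821 and 53959 against 1481 and 1111, and Thsd1, a membrane protein, 805 and 5783 against 4.60 and 3.32. For Tp53inp2, Rims3, Rn18s, Rn28s and Thsd1 the axonal replicates differed from each other by at least 2-fold, though in none did the groups overlap. The most negative differences with enough axonal reads were those of Cntn1, Epb41l1, Jph3, Sv2b, Agtpbp1 and Jph4, between -6.34 and -6.59. Epb41l1, a membrane skeleton protein, had 1.711 and 1.995 CPM in axonal and 587 and 547 CPM in somatic libraries, and the long non-coding RNA Miat 2.91 and 4.80 against 888 and 802.

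Transcript length went along with the compartment difference. The median length was 1212 bases for genes called higher, 2631 for genes called lower and 2272 for the others. Of the 165 genes under 500 bases, 60.6% were higher and 7.88% lower (median 3.97). Of the 947 genes from 500 to below 1000 bases, 43.7% were higher and 9.93% lower (median 2.33), and from 4000 to below 8000 bases (1761 genes) 2.39% were higher and 30.9% lower (median -2.34). Across the 11834 tested genes, which share the same 4 libraries, the Spearman rank correlation of the difference with length was -0.337, and it was -0.535 over the 5637 genes with at least 10 counts in each library. Transcripts under 1000 bases took 47.7% and 42.6% of axonal counts and 8.10% and 8.33% of somatic counts.

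Median lengths were 564 bases for the ribosomal proteins, 683 for complex I and 626 for complexes II to V, but 3918 for the voltage-gated channels and 4476 for the guidance genes. In 3 of the groups above a short member that rose can be set beside a long one that fell: Tomm7 has 424 bases and Tomm70 2298, Atp6v1f 667 and Atp6v0a1 4006, Dynlt1 698 and Dctn1 4432. Exceptions ran both ways. Tp53inp2 (4035 bases) and Tsc2 (5653) were long and rose, and Cadm3 (1191), an adhesion molecule, Cntfr (1332) and Nmnat2 (1239) were short and fell.

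With a smooth of each library's counts on length used as an offset, 624 genes (5.27%) were higher and 2271 (19.2%) lower, and the all-gene median was -0.86. The smooth was fitted on genes with at least 10 counts in each library, 105 under 500 bases and 648 from 500 to below 1000. All 79 ribosomal protein genes and 32 and 41 genes of the respiratory lists were used, so the offset can take up part of their difference. Ribosomal proteins then had 16 of 79 higher and 6 lower, with a median of -0.0026, and translation factors 0 of 42 higher and 3 lower, with a median of -0.26. Complex I had 17 of 33 higher and 0 lower (median 0.97) and complexes II to V 20 of 41 and 0 (median 0.79). The described axonal mRNAs had 4 of 39 higher and 7 lower (median -0.595). Ferritin and antioxidant genes had 7 of 28 higher and 1 lower (median 1.32), and actin and growth cone genes 5 of 40 and 3 (median -0.01). Ion channels still had 16 of 44 lower and 0 higher (median -3.50), adhesion molecules 11 of 26 lower and transmitter receptors 15 of 37. Single genes kept large differences: Ftl1 was at 5.13, Tp53inp2 at 8.14, Stau2 at 7.42, Uqcrq at 4.97, Kif5b at 3.36, Nefm at 2.47 and Prph at -2.26, all with an adjusted p below 0.05. Gap43, Sncg and Bax turned to -0.38, -0.66 and -0.22 with the offset. The proteasome, with 14 called before, had 0 with the offset. Whether the length relation belongs to the axon or to the kit cannot be told apart.

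**Figure D4:**
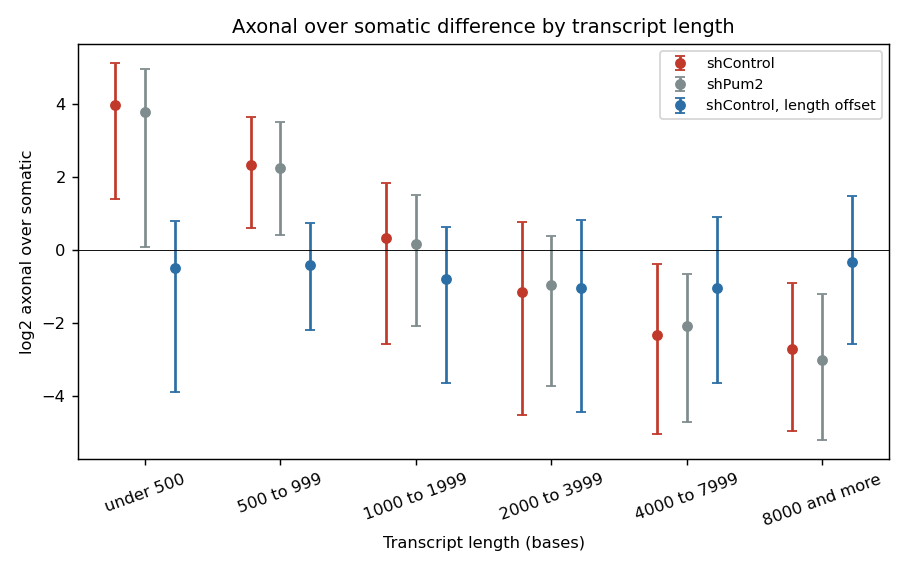
Median log2 difference between axonal and somatic libraries (points) with the quartiles (bars) for tested genes in 6 classes of transcript length in bases, for the shControl libraries, the shPum2 libraries and the shControl libraries with the length offset. In both hairpins the median drops from near 4 under 500 bases to below -2.5 at 8000 bases and more, and with the offset it stays between -1.05 and -0.32.

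The compartments of the shPum2 cultures, fitted apart on libraries not used above, gave 706 genes higher (5.85%) and 1479 lower (12.2%) of 12077. Those libraries share kits and compartments with the shControl ones but no sample. Of the 1290 genes called higher in shControl and tested there, 1270 had the same sign (98.4%), and of the 2606 called lower 2267 had (87.0%). Of all 11735 genes tested in both fits, 40.55% had a positive and 59.45% a negative difference in shPum2. Calls in both numbered 621 higher, which is 47.3% of the shControl and 88.0% of the shPum2 calls, and 792 lower, which is 30.0% and 53.5%. Ribosomal proteins had 47 of 79 higher in shPum2 (median 3.49), complex I 26 of 33 (4.19), ferritin and antioxidant genes 15 of 28 (2.77) and voltage-gated channels 14 of 43 lower (-3.69). Adhesion molecules had 4 of 26 lower (13 in shControl) and sensory channels 1 of 15 lower (6 in shControl). V-ATPase and lysosome genes had 5 of 36 higher (19 in shControl). Slc17a6, Cntn1 and Scg2 had smaller differences in shPum2 (-2.52, -3.56 and -2.635) and were not called (edgeR, adjusted p = 0.216, 0.2285 and 0.366). Nefm, Gap43, Prph and Tubb3 kept their sign there with adjusted p of 0.0519, 0.187, 0.376 and 0.196. Length showed the same order in these libraries, from a median of 3.80 under 500 bases to -3.03 at 8000 and more.

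Markers of other cells differed between compartments as well. Of 16 tested neuron markers 4 rose and 4 fell, and their summed level was 23653 and 19267 CPM in axonal and 39665 and 39908 CPM in somatic libraries, so neuronal RNA was measured in both. Of 17 macrophage and blood markers, 9 rose and 0 fell (median 6.30), among them Cd68 at 400 and 373 CPM in axonal against 19.9 and 12.4 CPM in somatic libraries, Tyrobp at 251 and 158 against 7.95 and 3.97, and Lyz2 at 816 and 2190 against 8.97 and 8.03. Their sum was 3510 and 3178 CPM against 171 and 106. Fibroblast and matrix markers summed to 1040 and 1302 CPM in axonal and 5679 and 3212 CPM in somatic libraries, with 0 of 19 higher and 3 lower, and Fn1 at 12.4 and 5.54 against 681 and 305. Schwann and satellite glia markers summed to 4733 and 320 CPM against 844 and 488, with 2 of 18 higher and 3 lower, and 4 and 5 of the 19 found had 0 counts in axonal replicates 1 and 2. Most of the first value was Apoe, which had 4506 CPM in axonal replicate 1 and 63.4 CPM in replicate 2. Endothelial and mural markers summed to 28 and 135 CPM against 116 and 55, with 0 of 11 higher and 2 lower.

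Genes known from immune cells were also among the largest single differences, beside other genes. The 12 largest rises under the naming rule held Ccl3, Cnr2 and Lyz2. The others were Thsd1, Rn7sl1, Cdkn2c, Oasl, Akr1b8, Mip, Lrtm2, C20h21orf58 and Cyp4f17, with log2 differences from 8.64 to 11.39. Mip, for one, had 1429 and 1265 CPM in axonal against 8.37 and 8.89 CPM in somatic libraries. Ccl3, a chemokine, had 178 and 210 CPM in axonal against 0.718 and 0.863 CPM in somatic libraries. Cnr2, the cannabinoid receptor of immune cells, had 2657 and 1360 against 10.8 and 9.19. In the shPum2 fit Ccl3 and Cnr2 were again called higher (log2 difference 8.44 and 8.10, edgeR, adjusted p = 0.0487 each). There 0 of 17 macrophage and blood markers were called higher, though their median difference was 5.09 (6.30 in shControl). The lysosomal genes Grn and Ctsz and the ferritins are known to be abundant in macrophages too. The shPum2 axonal libraries, whose macrophage and blood markers summed to 6225 CPM in replicate 1 and 363 CPM in replicate 2, differ in this respect. Grn moved with the markers there, at 1169 and 22.6 CPM, and so did Ctsz, at 490 and 23.1 CPM. Ftl1 had 57808 and 58369 CPM and Fth1 32757 and 33589 CPM in the same replicates.

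In the same order the ribosomal proteins summed to 92010 and 130365 CPM, complex I to 16721 and 24201, complexes II to V to 41427 and 56753, and the ferritin and antioxidant list to 101637 and 103114. The V-ATPase and lysosome list summed to 17622 and 6147 CPM, and so was lower in the library with the lower macrophage sum. The part of macrophage RNA in these values was not tested.

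**Figure D5:**
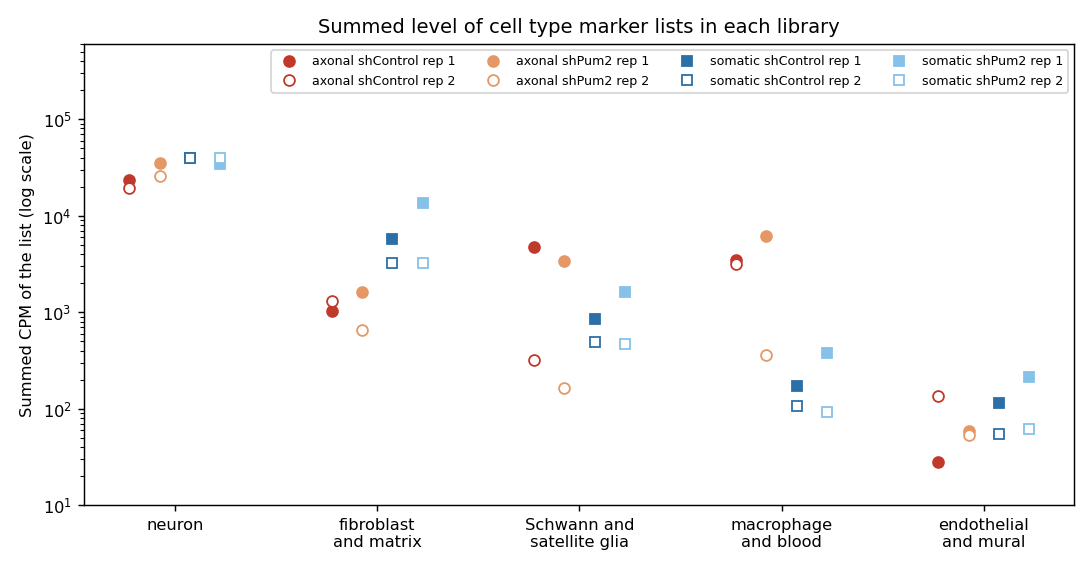
Summed CPM (log scale) of 5 lists of cell type markers in each of the 8 libraries; circles are axonal and squares somatic libraries, filled for replicate 1 and open for replicate 2. The macrophage and blood sum was between 3178 and 6225 CPM in 3 axonal libraries and 363 CPM in axonal shPum2 replicate 2, and at most 383 CPM in the somatic ones.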

How the data were processed

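The authors deposited, per library, estimated counts from kallisto for 18321 RefSeq transcripts, with TPM and with length and effective length in bases, per the file headers. The submitters' processing notes name build Rnor_6.0, DESeq2 and kallisto, whose versions are not given in the sources used here. The authors' deposited comparison tables of the hairpins were not used here.

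Transcripts were matched to symbols through RefSeq's GRCr8 table, for names alone (17367 matched, 94.8%; 954 kept their own identifiers), and the estimated counts were rounded after summing to 17379 genes. The 2 axonal and 2 somatic shControl libraries were fitted with the edgeR 4.0.16 quasi-likelihood test in R 4.3.3. Settings were TMM, edgeR's expression filter and Benjamini-Hochberg over 11834 genes, with a threshold of 0.05. A run on simulated data used a smaller axonal spread than these libraries have, so it gives no error rate for the calls. SE is that of the log2 difference. A fold against a group at 0 uses a floor of 3 counts over the group. Floors cover counting error alone. Alternatives were RLE, upper-quartile and total scaling, no filter or a minimum of 10 counts, DESeq2 1.42.0, limma voom 3.58.1, all 8 libraries, the shPum2 libraries, the replicate number as a block, a length offset, a 2-fold limit and each library left out.

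The 44 gene lists, the members and the rule for named genes were chosen with earlier results of these data known. The rule named Pum2, the 12 largest rises and falls (called, not overlapping, at least 50 CPM in the higher group and 10 counts in every library), the 10 highest axonal TPM, up to 4 members per list by p with called members against it, and unlisted genes among the 10 largest TPM differences. Genes shown with start sequences, those named to illustrate length, and Nefl were chosen after their values were seen. Protein length was not analysed here.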

Additional observations from a re-analysis of the deposited data

Results flagged for a closer look

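For 4 genes both hairpins gave a call, in opposite directions, and every axonal library of one hairpin moved one way and every axonal library of the other the opposite way; the difference itself was not tested. Cdkn2b had 20.02 and 9.09 CPM in axonal shControl libraries and 1.73 and 1.47 CPM in somatic ones, a log2 difference of 4.90 (edgeR, adjusted p = 0.0335), and 0 counts in both axonal shPum2 libraries. Dnajc22 had 7.87 and 21.3 CPM against 0.957 and 1.38 (5.32) and 0 counts in axonal shPum2. S100a5 had 14.2 and 7.39 CPM against 1.32 and 0.906 (4.99) and 0 counts in axonal shPum2. Fam210b had 11.2 and 42.9 CPM against 2.87 and 2.11 (5.14) and 1 count in each axonal shPum2 library. All 4 were below 4 CPM in the somatic libraries of both hairpins.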

How the results depend on the processing

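Genes called higher and lower numbered 1312 and 2641. Counts of higher genes moved by over 1.5 times with library totals (603), DESeq2 (2256), limma voom (763), the shPum2 libraries (706), the length offset (624) and the length offset with a replicate block (168). Counts of lower genes did so without an expression filter (1660), with at least 10 counts in each library (730), limma voom (1146), the shPum2 libraries (1479) and the length offset with a replicate block (44). Calls were 33.2% higher of all calls with TMM, 37.0% with RLE, 30.4% with upper-quartile factors and 13.3% with library totals, where 88 of the 1312 genes called higher and 0 of the 2641 called lower turned sign. Leaving out a library gave 378 to 4037 higher and 36 to 6928 lower. Whether the replicate numbers pair the samples is not known. Same-numbered libraries of the compartments deviated at r = 0.058 across genes. That value cannot decide it, since the spread between axonal replicates (r = 0.644, against 0.990 for somatic ones) can hide a shared deviation. With the number as a block 601 genes were higher and 118 lower. Directions turned with library totals for Actb (-0.09), Gap43 (-0.93), Stmn2 (-0.67), Tuba1a (-0.31) and Kars1 (-0.38), with the length offset for Gap43 (-0.38), Sncg (-0.66), Rps28 (-0.29), Rpl39 (-0.24) and Bax (-0.22), with that offset and the block for the same genes (-0.38, -0.67, -0.29, -0.24 and -0.26), in the shPum2 libraries for Cdkn2b (-7.78), Dnajc22 (-7.33), S100a5 (-6.97) and Fam210b (-3.66), without axonal replicate 1 for Apoe (-1.46, against 4.68 without replicate 2), and with at least 10 counts in each library for Gap43 (-0.10). The uncalled difference of Nefl (-0.01) turned to 0.42 with RLE and with DESeq2 and to 0.76 in the shPum2 libraries, and was 0.3 and -0.6 without axonal replicate 1 or 2. Medians by length moved with effective length to 3.48 under 500 and 1.83 from 500 to below 1000 bases, and with at least 10 counts in each library to 3.76, 1.99, -0.70 (2000 to below 4000), -1.98 (4000 to below 8000) and -2.54 (8000 and more). The causes were not tested. At the axonal depth reached, 2119 of the 2641 lower calls rest on at most 10 axonal counts.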

Other observations

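At a limit of 10 counts, 60 genes were found in both axonal shControl libraries and in neither somatic one. They were chosen by these values, which are a description. Among the most abundant were several genes of white blood cells: Rgs1, a regulator of G protein signalling in lymphocytes, at 24.4 and 159 CPM, Il2rg, the common chain of interleukin receptors, at 17.2 and 122 CPM, Slamf6 at 19.6 and 101 CPM and Cd300lf at 13.2 and 56.2 CPM. Ins2, an insulin gene, stood first with 39.5 and 159.5 CPM, and Hjv, the iron regulator hemojuvelin, had 32.2 and 46.4 CPM. Conversely, 3116 genes had at least 10 counts in both somatic libraries and in neither axonal one.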
